A study of Mus musculus with 10 samples.

Results

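Gene expression was compared between 30 and 120 min of stimulation in mouse CD8+ T cells, which is the second interval of a time course that starts from naive cells. The comparison takes 6 of the 10 libraries of the series: 4 at 30 min and 2 at 120 min, chosen by their labelled time. Female C57Bl/6 mice aged 6 weeks, either wild type (WT) or Ikaros-Zn4-/-, gave the spleen cells. CD8+ cells were enriched by negative selection, sorted by naive surface markers, among them low or absent CD44, and stimulated on plate-bound antibodies to CD3 and CD28. WT and Ikaros-Zn4-/- cells each had 2 libraries at 30 min and 1 library at 120 min. The unstimulated groups at 0 min, also 2 libraries per genotype, are used only as the starting level. Ikaros-Zn4-/- mice lack the fourth zinc finger of the Ikaros DNA-binding domain, and a gene-level RPKM cannot show that deletion. No label ties the replicates to separate mice, so each p-value measures spread among these libraries only, which may be technical.

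A T cell receptor that binds its ligand, or an antibody to CD3, starts kinase and calcium signals that reach the nucleus within minutes. Immediate early genes such as Fos and Jun, which encode the transcription factor AP-1, respond first from factors already in the cell, and later genes need the signals or the new factors for longer. Ikaros is a zinc finger DNA-binding protein of lymphocytes that works with the chromatin remodeler Chd4 in the NuRD complex and sets the threshold of T cell activation.

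The values are RPKM, reads scaled by transcript length and by the reads of the library, as deposited by the authors. Changes are differences of log2(RPKM x a library factor + 1), the mean of both genotypes, 120 minus 30 min, with their standard error (SE). A gene is called when limma's moderated test gives a Benjamini-Hochberg adjusted p below 0.05 over all 12203 genes tested, and every adjusted p below comes from that test unless another is named. The 4 libraries at 30 min hold 5.77 to 11.6 M reads, and those at 120 min hold 9.20 and 10.5 M, as recovered from the RPKM steps. Cd8a, Cd8b1, Trac and the other 5 markers of CD8 T cells were present in each library, with a summed level of 2978 to 4547 RPKM at 30 min and 1714 to 1945 RPKM at 120 min. Of 11 B cell markers only Cd79a, Cd79b and Ighm are in the table, and their sum was 180 to 339 RPKM at 30 min and 46.7 to 76.7 RPKM at 120 min. Ighm carries that sum and was called lower, Cd79a was called higher, from 0.474 to 1.01 RPKM at 30 min to 3.79 and 6.26, and Cd79b was not called. Of the markers of other cells, 4 of 12 for myeloid and dendritic cells, 3 of 9 for NK and gamma delta T cells, 2 of 6 for CD4 and regulatory T cells (Ctla4 and Ikzf2) and 0 of 9 for erythroid cells and platelets are in the table. The part of other cells in the results was not tested. In bulk RNA, fewer cells of a type and less RNA per cell cannot be told apart.

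Between 30 and 120 min the transcript pool shifted in both directions. AP-1 genes, T cell receptor and CD8 coreceptor genes, cytotoxic genes and interferon-response genes were mostly lower at 120 min. NF-kB genes and genes of the nuclear pore and nuclear transport were mostly higher. Of 12203 genes tested, 5457 were called, which is 44.7%: 2772 were higher (22.7%) and 2685 were lower (22%). A change of at least 2-fold was found for 1124 called genes that were higher (9.21%) and 1174 that were lower (9.62%), and a change of at least 4-fold for 103 and 92. Both 120 min libraries lay above all 4 libraries of 30 min, in RPKM as deposited, for 2481 genes (20.3%) and below them for 4441 (36.4%). Without the library factors the median gene changes by -0.22 on the log2 scale in place of -0.02, and the calls split into 1848 higher and 3494 lower. The share of calls that are higher is then 34.6%, against 50.8% with the factors. With either 120 min library left out, fewer of all genes were called in each direction. List counts given below for these settings are to be read beside that smaller total. Without the Ikaros-Zn4-/- library at 120 min 2329 genes were called, and without the WT library at 120 min 3486.

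By contrast, 30 against 0 min called 2111 genes (17.3%), with 1155 higher (9.46%) and 956 lower (7.83%). That comparison uses all 10 libraries and shares the 30 min libraries with the later interval, so the values of both are given side by side only.

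**Figure D1:**
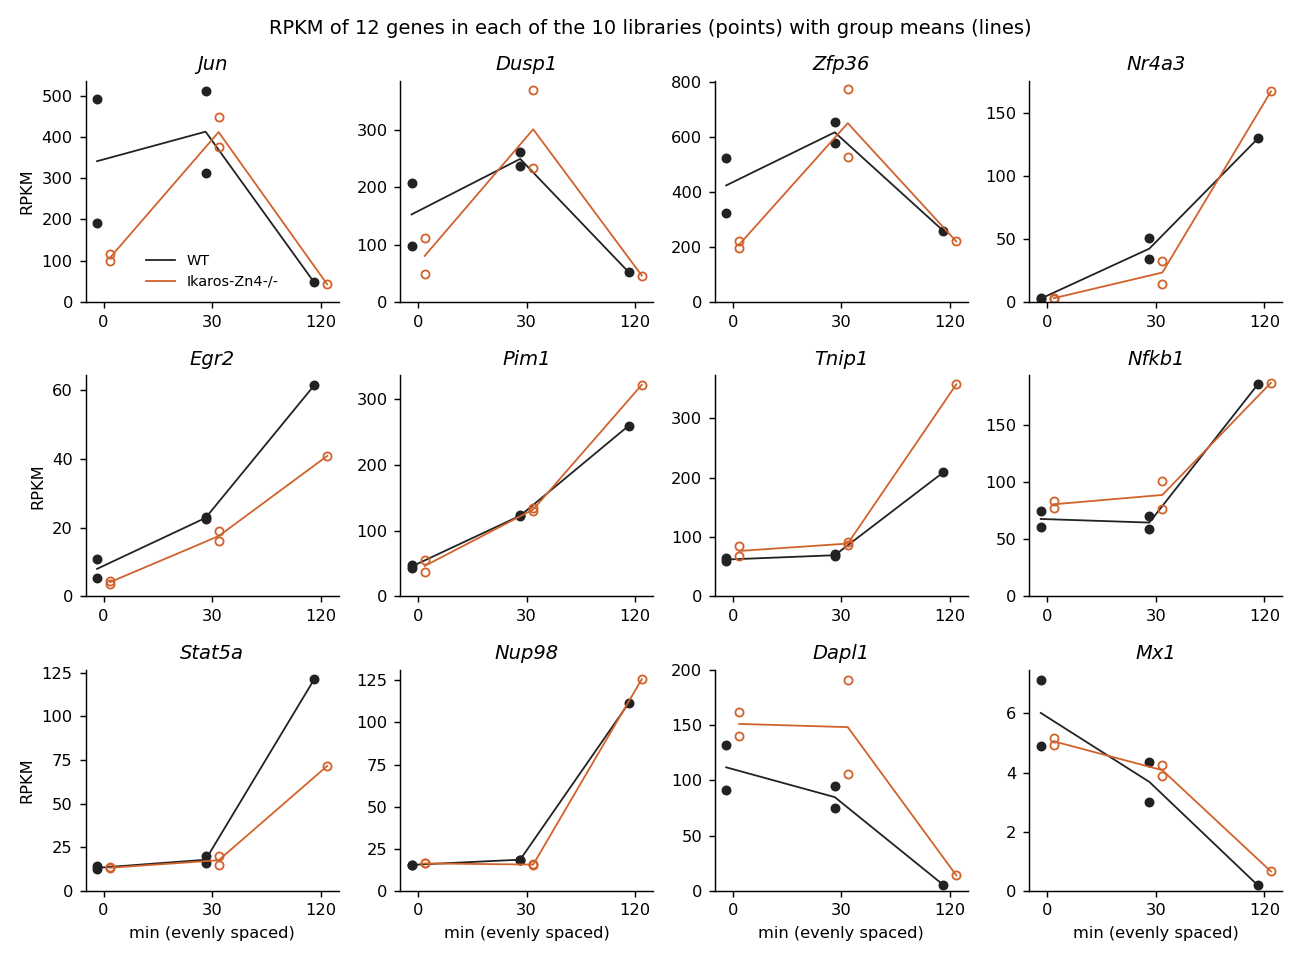
RPKM of 12 genes at 0, 30 and 120 min; filled points are WT libraries, open points Ikaros-Zn4-/- libraries, and lines join the group means. Jun, Dusp1 and Zfp36 peak at 30 min, Nr4a3, Egr2 and Pim1 climb at both steps, Tnip1, Nfkb1, Stat5a and Nup98 rise after 30 min, and Dapl1 and Mx1 drop after 30 min.

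Among called genes with no overlap between the times and a mean of at least 10 RPKM at 120 min, the largest rise was that of Zc3hav1l (chr6:38287396-38299259, GRCm38, GENCODE M21, as for all gene positions here). Its RPKM at 30 min was 2.70 and 2.89 in WT and 2.30 and 1.43 in Ikaros-Zn4-/- cells, and at 120 min it was 40.4 in WT and 44.9 in Ikaros-Zn4-/- cells. The log2 change of Zc3hav1l was 3.99 (SE 0.21, adjusted p = 0.000894). Dennd4a (chr9:64811340-64919667), which encodes a regulator of Rab GTPases, went from 6.09 and 5.72 RPKM in WT and 3.63 and 2.83 in Ikaros-Zn4-/- cells to 74.1 and 43.5, a change of 3.68 (SE 0.15, adjusted p = 0.000894). Kdm2b (chr5:122870665-122989823), a CpG-binding histone demethylase that recruits Polycomb proteins, held 4.09 to 5.15 RPKM in the 4 libraries of 30 min and reached 47.7 and 40.02, a change of 3.26 (SE 0.14, adjusted p = 0.000894). The exons of Kdm2b overlap those of Rnf34 on the other strand, whose reads cannot be separated in a kit without strand.

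Chd2, a chromodomain remodeler, had 63.6, 48.5, 50.6 and 31.1 RPKM at 30 min and 301 and 286 at 120 min, a change of 2.88 (SE 0.27, adjusted p = 0.00112). It shares 2628 bases of exon with 1810026B05Rik on the same strand. Aff1, a scaffold of the super elongation complex, changed by 2.67 (SE 0.18, adjusted p = 0.000954), and Rbbp8, which starts DNA end resection, by 2.98 (SE 0.17, adjusted p = 0.000894). Rn7sk, the small RNA that holds back the elongation factor P-TEFb, rose by 2.87 (SE 0.61, adjusted p = 0.0119), from 2.36 to 14.5 RPKM at 30 min to 41.2 and 55.1. Its call was lost without the Ikaros-Zn4-/- library at 120 min and without the WT library (highest adjusted p = 0.141). Polr2a, the large subunit of RNA polymerase II, rose by 1.28 (SE 0.18, adjusted p = 0.0029), with 56.9 to 84.1 RPKM at 30 min and 139 in both libraries of 120 min. Ramp3, a coreceptor of the calcitonin receptor family, rose by 3.25 (SE 0.21, adjusted p = 0.000954), from and to unequal levels. It had 12.5 and 15.4 RPKM in WT and 2.48 and 5.03 in Ikaros-Zn4-/- cells at 30 min, and 124 and 33.5 at 120 min. The change was 3.30 in WT and 3.21 in Ikaros-Zn4-/- cells.

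The largest falls, also taken among called genes with no overlap between the times, included genes of the naive and resting state. Dapl1 (chr2:59484653-59505020) is abundant in naive CD8 T cells. Its RPKM at 30 min was 74.9 and 94.9 in WT and 106 and 191 in Ikaros-Zn4-/- cells, and at 120 min it was 5.33 and 13.9. The change of Dapl1 was -3.27 (SE 0.25, adjusted p = 0.00105). Tspan32 (chr7:143005046-143019644), a tetraspanin of blood cells, fell from 11.96 to 16.1 RPKM to 0.401 and 0.877, a change of -3.08 (SE 0.14, adjusted p = 0.000894), and shares 271 bases of exon with Tspan32os. Dtx1, a target of Notch signalling, changed by -2.76 (SE 0.14, adjusted p = 0.000894), Sit1, a transmembrane adaptor that dampens receptor signals, by -2.57 (SE 0.20, adjusted p = 0.00107), and Parvg, an adaptor at integrins, by -2.57 (SE 0.17, adjusted p = 0.000954). The heat shock genes Hspa1a and Hspa1b also stood among the largest falls, but 1 library decides much of their level. Hspa1b had 209.7 RPKM in WT replicate 1 at 30 min, 42.5, 16.5 and 27.0 in the other libraries of 30 min, and 3.57 and 4.11 at 120 min. These genes are near-identical copies, so reads could be split between them, and their calls were lost without either 120 min library, that of Hspa1a also without either Ikaros-Zn4-/- library of 30 min (highest adjusted p = 0.316 for Hspa1a and 0.216 for Hspa1b).

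AP-1 genes were mostly past their peak at 120 min. Of 12 AP-1 genes tested, 10 were called higher at 30 than at 0 min, and at 120 against 30 min 7 were lower and 2 higher, with a median change of -1.12. Jun (chr4:95049034-95052222) had 512 and 313 RPKM in WT and 376 and 447 in Ikaros-Zn4-/- cells at 30 min, and 47.3 and 42.7 at 120 min. Both libraries of 120 min are below every library of 30 min and also below the 4 libraries of 0 min, which span 98.4 to 492 RPKM, and the change was -2.89 (SE 0.23, adjusted p = 0.00107). Fos had 699.8, 764, 591 and 1134 RPKM at 30 min and 228 and 93.5 at 120 min, a change of -2.14 (SE 0.37, adjusted p = 0.00579). The 0 min library of WT replicate 1 held 1259 RPKM of Fos, above all libraries of 30 min, so the starting level was uneven, and Fos was not called at 30 against 0 min (adjusted p = 0.148).

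The partners of Fos and Jun differed in course. Junb was the most abundant, with 897 to 1559 RPKM at 30 min and 379 and 359.7 at 120 min, a change of -1.47 (SE 0.23, adjusted p = 0.00446). Jund changed by -2.07 (SE 0.36, adjusted p = 0.00584), Fosb by -1.25 (SE 0.35, adjusted p = 0.0304) and Batf, which pairs with Irf4 on composite sites, by -0.996 (SE 0.12, adjusted p = 0.00206). Fosl2 and Mafg went the other way. Fosl2 had 5.57 to 8.78 RPKM at 0 min, 163, 128, 108 and 48.9 at 30 min and 222 and 159 at 120 min, a further rise of 1.13 (SE 0.36, adjusted p = 0.0445), with the 159 of Ikaros-Zn4-/- cells inside the range of 30 min. Mafg, a small Maf protein, rose from 3.89 to 6.98 RPKM to 19.7 and 16.6. Without the Ikaros-Zn4-/- library at 120 min fewer of the 12 AP-1 genes were called lower, as were fewer of all genes. Fos (-1.45), Junb (-1.27) and Jund (-2.11) then lost their calls, that of Jund also without the WT library. The calls of Fosb and Fosl2 were lost under 3 and 4 of the 6 left-out libraries (highest adjusted p = 0.277 and 0.318), in both cases the WT library at 120 min among them. Fosl2 also lost its call with RPKM as deposited (0.86, adjusted p = 0.0765), with no filter, no trend or time alone, and Fosb and Junb in the additive fit of 10 libraries (adjusted p = 0.198 and 0.0545).

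The immediate early genes outside AP-1 split. Of 25 tested, 21 were called higher at 30 against 0 min, and at 120 against 30 min 6 were higher, 6 lower and 13 not called, shares close to those of all genes. The 6 higher became 3 without the Ikaros-Zn4-/- library at 120 min. The 6 lower became 2 without the WT library at 120 min, 3 and 4 without WT replicates 1 and 2 of 30 min, and 10 with RPKM as deposited. Nr4a3, Egr2 and Egr3 were among the rises. Nr4a3 (chr4:48045153-48086447), an orphan nuclear receptor induced by T cell receptor signals, had 2.41 to 3.49 RPKM at 0 min, 50.9, 33.9, 32.7 and 14.1 at 30 min and 129.9 and 167 at 120 min. The 3 times do not overlap, and the second step was 2.52 (SE 0.45, adjusted p = 0.00676) after a first of 3.14 (adjusted p = 0.000545). Egr2, a zinc finger factor that restrains T cells, had 23.1, 22.6, 16.1 and 18.9 RPKM at 30 min and 61.3 and 40.8 at 120 min, a change of 1.54 (SE 0.12, adjusted p = 0.00102), and Egr3 rose by 1.73 (SE 0.21, adjusted p = 0.00213). The relative Nr4a1 was not called, with 281 to 605 RPKM at 30 min and 454 and 337 at 120 min (change 0.24, SE 0.33, adjusted p = 0.585). Klf6 was not called either (change -0.43, SE 0.30, adjusted p = 0.285), although it was called lower without the Ikaros-Zn4-/- library at 120 min (-1.05). The call of Nr4a3 was lost without the Ikaros-Zn4-/- library at 120 min (adjusted p = 0.0902).

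Of 15 feedback regulators of MAP kinases tested, 11 were higher at 30 against 0 min, and at 120 against 30 min 4 were lower and 2 higher, with a median of -0.18. The share called lower is near that of all genes, and the 4 became 1 without the WT library at 120 min and 2 without either WT library of 30 min. Dusp1, a nuclear phosphatase of p38 and JNK, had 237 and 263 RPKM in WT and 234 and 369.9 in Ikaros-Zn4-/- cells at 30 min, and 52.0 and 46.2 at 120 min. Its groups do not overlap (change -2.19, SE 0.19, adjusted p = 0.00108). Dusp4 changed by -1.46 (SE 0.36, adjusted p = 0.0193), a call lost without either 120 min library and without Ikaros-Zn4-/- replicate 1 of 30 min (highest adjusted p = 0.186). In the opposite direction Dusp16, a phosphatase of JNK, rose by 2.04 (SE 0.21, adjusted p = 0.00138) and Spred2, an inhibitor of Ras signalling, by 1.67 (SE 0.13, adjusted p = 0.00107). Of 16 mRNA decay and antiproliferative regulators tested, 7 were higher and 3 lower, against 22.7% and 22% of all genes. The 3 became 5 with RPKM as deposited and 1 with no trend. Zfp36, which binds AU-rich elements and destabilises cytokine messages, changed by -1.13 (SE 0.18, adjusted p = 0.00471). The roquin genes Rc3h1 and Rc3h2, which act on the same kind of messages, rose by 1.56 (SE 0.15, adjusted p = 0.00121) and 1.40 (SE 0.15, adjusted p = 0.00156), and Cnot1, the scaffold of the deadenylase complex, by 1.54 (SE 0.12, adjusted p = 0.00107). The call of Zfp36 was lost without the Ikaros-Zn4-/- library at 120 min (adjusted p = 0.0673). The RefSeq sequence (GRCm38.p6) of the 250 bases before the start of Dusp1 (chr17:26508473-26508722, minus strand) is shown because this early gene has a full cyclic AMP response element, TGACGTCA, in capitals.
Dusp1: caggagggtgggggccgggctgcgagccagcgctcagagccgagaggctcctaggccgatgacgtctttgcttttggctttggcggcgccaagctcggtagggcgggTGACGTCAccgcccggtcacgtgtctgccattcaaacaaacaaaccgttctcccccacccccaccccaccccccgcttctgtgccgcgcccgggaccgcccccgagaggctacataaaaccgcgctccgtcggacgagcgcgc
This element was found on either strand in 2.995% of the promoter windows, from 250 bases before to 50 after the start, of genes called higher, 2.76% of those called lower and 3.28% of all 9746 windows.

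NF-kB genes were mostly higher at 120 min. Of 18 tested, 12 were called higher and 0 lower by limma (0 lower also at an unadjusted p below 0.05), against 22.7% and 22% of all genes, with a median change of 0.64 against -0.02 over all genes. Of the same list 1 member lay below all libraries of 30 min in deposited RPKM, and 1 was called lower with RPKM as deposited or after quantile normalization. The members that rose include subunits and inhibitors. Tnip1 (chr11:54910785-54962917), a ubiquitin-binding partner of the inhibitor A20, had 67.7 and 70.8 RPKM in WT and 85.8 and 92.0 in Ikaros-Zn4-/- cells at 30 min, and 209 and 357 at 120 min. It had not been called at 30 against 0 min (adjusted p = 0.0663), and the later change was 2.05 (SE 0.14, adjusted p = 0.000966). Nfkb1 (chr3:135584655-135691547), which encodes p105 and p50, had 59.3, 70.2, 76.8 and 101.2 RPKM at 30 min and 186 and 187 at 120 min, a change of 1.56 (SE 0.15, adjusted p = 0.00122). Relb rose by 1.13 (SE 0.17, adjusted p = 0.00349), Bcl3, a nuclear IkB protein, by 1.23 (SE 0.26, adjusted p = 0.0114) and Tnip2 by 1.44 (SE 0.22, adjusted p = 0.00402).

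Nfkbia and Tnfaip3, high at 30 min already, were not called. Nfkbia, which encodes the inhibitor IkBa, had gone from 121 to 173 RPKM at 0 min to 483 to 582 at 30 min, and stood at 499.9 and 584 at 120 min (change 0.32, SE 0.13, adjusted p = 0.0851), but it was called higher after quantile normalization (0.38, adjusted p = 0.0383) and with 1 mean per group (adjusted p = 0.0384). Tnfaip3, which encodes A20, had 380.2 to 473 RPKM at 30 min and 309.9 in WT and 481 in Ikaros-Zn4-/- cells at 120 min (change 0.07, SE 0.23, adjusted p = 0.831). Rel, the c-Rel subunit, rose at both steps, from 7.29 to 10.7 RPKM at 0 min to 43.5, 31.1, 26.7 and 13.8 at 30 min and 56.7 and 42.8 at 120 min, with overlap between the later groups (change 1.12, SE 0.32, adjusted p = 0.0328). The call of Rel was lost without 3 of the 6 libraries, among them each of 120 min (highest adjusted p = 0.269), that of Rel also with RPKM as deposited (0.0543), quantile normalization (0.0767) and time alone (0.0851), that of Bcl3 without the WT library at 120 min (0.119) and that of Tnip2 without the Ikaros-Zn4-/- library (0.0586). Without either of these libraries fewer of the 18 genes were called higher, as were fewer of all genes. With RPKM as deposited 6 were higher, beside 1848 of all 12203 genes.

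Promoters of Tnip1 (chr11:54962941-54963190, minus strand) and Rel (chr11:23770970-23771219, minus strand) are shown because matches to the NF-kB consensus, in capitals, lie within the 250 bases before the start.
Tnip1: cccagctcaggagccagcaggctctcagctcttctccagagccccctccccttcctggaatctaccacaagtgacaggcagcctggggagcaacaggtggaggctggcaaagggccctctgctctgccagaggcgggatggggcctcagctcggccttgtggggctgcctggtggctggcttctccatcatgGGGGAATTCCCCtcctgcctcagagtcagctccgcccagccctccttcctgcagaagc
Rel: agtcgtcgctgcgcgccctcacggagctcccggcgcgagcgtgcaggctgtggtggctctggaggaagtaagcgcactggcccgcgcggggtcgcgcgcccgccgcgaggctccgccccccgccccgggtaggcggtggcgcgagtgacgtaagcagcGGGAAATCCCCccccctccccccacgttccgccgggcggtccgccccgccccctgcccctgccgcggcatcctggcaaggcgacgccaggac
A match on either strand was found in 10 of the 21 RefSeq promoter windows of NF-kB genes, which belong to 8 of 15 genes. It was found in 10.9% of the windows of all genes called higher, 9.96% of those called lower and 10.3% of all windows. Overlapping matches are counted together, and a match is a description of the letters, not evidence of binding.

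**Figure D2:**
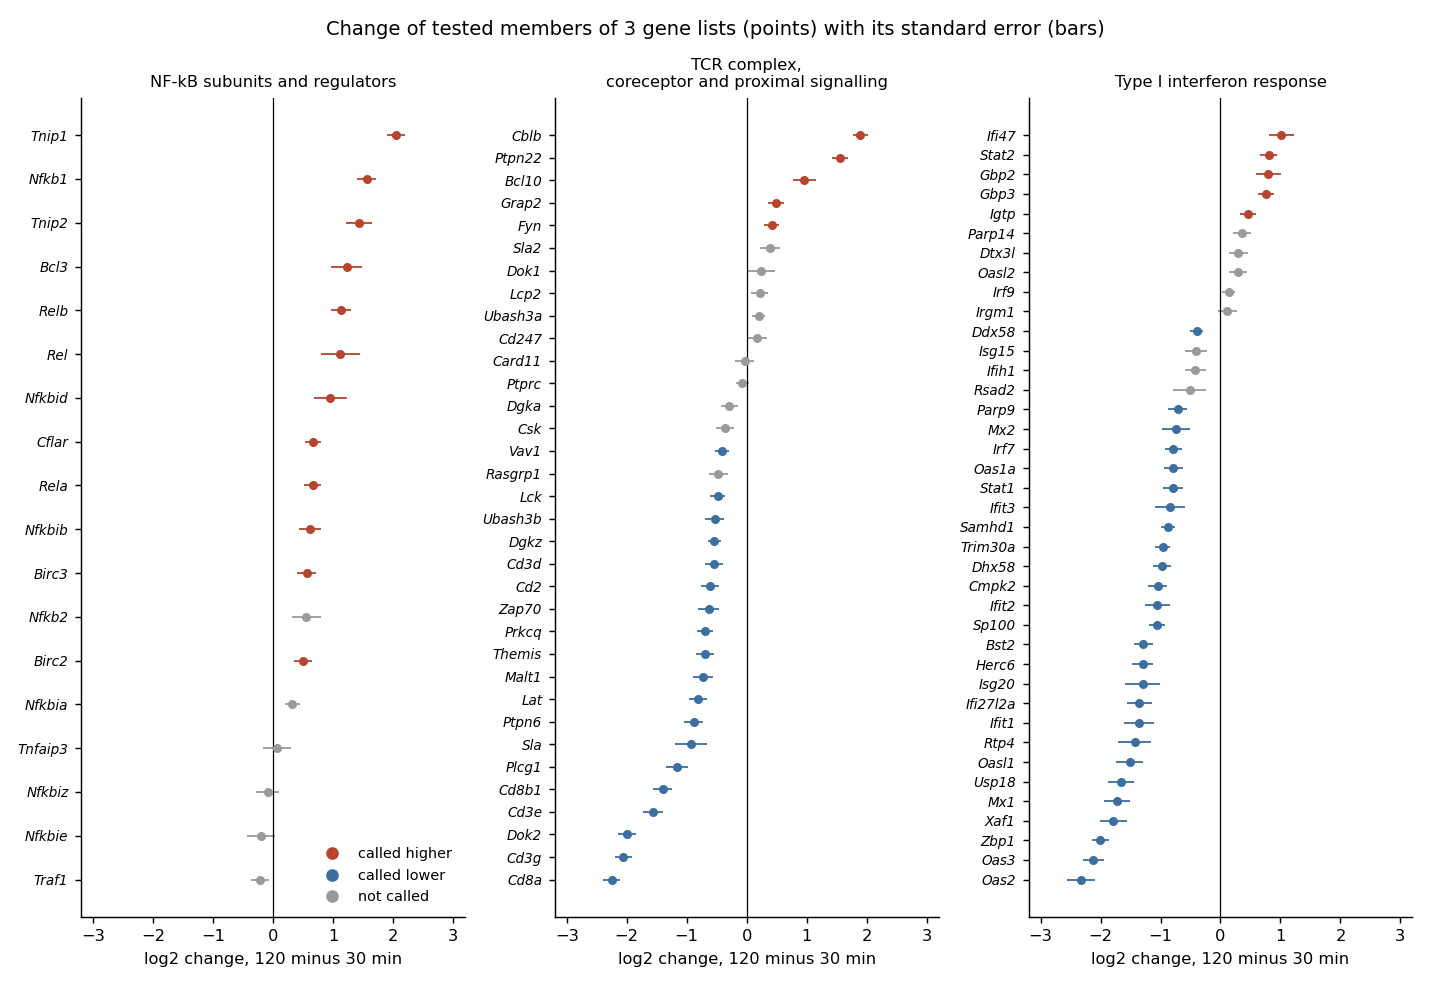
Log2 change from 30 to 120 min (horizontal axis) of tested members of the NF-kB, T cell receptor and interferon lists, with its standard error; colour marks the call. NF-kB genes lie mostly to the right of 0 and the other lists mostly to the left, with Cblb and Ptpn22 among the exceptions of the receptor list.

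Genes of the T cell receptor complex and its first signalling steps were mostly lower at 120 min. Of 35 tested, 19 were lower and 6 higher, with a median of -0.49, and of the 8 CD8 T cell markers 6 were lower with a median of -0.97. Cd8a (chr6:71373427-71379173), the alpha chain of the coreceptor, had 226 and 290.1 RPKM in WT and 292 and 362 in Ikaros-Zn4-/- cells at 30 min, and 47.5 and 52.2 at 120 min. The groups do not overlap (change -2.25, SE 0.14, adjusted p = 0.000954), and the step from 0 to 30 min was -0.48 (adjusted p = 0.0121). Cd3g, a signalling chain of the receptor, fell in the same way, from 270.5 to 355 RPKM to 56.8 and 65.2 (change -2.06, SE 0.14, adjusted p = 0.000954), and Cd3e changed by -1.57 (SE 0.16, adjusted p = 0.00137) and Cd8b1 by -1.40 (SE 0.16, adjusted p = 0.00174). Trac, the constant region of the alpha chain, was not called (change -0.31, SE 0.14, adjusted p = 0.112), with 827 to 1080.1 RPKM at 30 min and 631 and 620.1 at 120 min, and neither was Trbc2 (change -0.25, SE 0.19, adjusted p = 0.323). Trac was called lower with RPKM as deposited (-0.57, adjusted p = 0.0393) and with limma-voom (-0.36, adjusted p = 0.0444). Without either 120 min library, either WT library of 30 min or Ikaros-Zn4-/- replicate 2 of 30 min, 4 of the 8 CD8 markers were lower.

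Among the kinases and adaptors below the receptor, Lck, Zap70, Lat and Plcg1 fell by less than Cd8a and Cd3g, and Sit1, named above, by more. Cd3d, a chain of the receptor, also fell by less than Cd3g (change -0.55, SE 0.16, adjusted p = 0.0331). Its call was lost without either WT library of 30 min, among others. Lck, the kinase bound to CD8, had 264, 323, 372 and 445 RPKM at 30 min and 174 and 242 at 120 min (change -0.49, SE 0.13, adjusted p = 0.026). Zap70 changed by -0.63 (SE 0.18, adjusted p = 0.0297), the adaptor Lat by -0.81 (SE 0.14, adjusted p = 0.0065), Plcg1, which makes the second messengers, by -1.17 (SE 0.19, adjusted p = 0.00455), and Dok2, an inhibitory adaptor, by -1.997 (SE 0.15, adjusted p = 0.000996). The members that rose include negative regulators. Cblb, a ubiquitin ligase that limits receptor signals, had 24.3 to 29.5 RPKM at 30 min and 81.8 and 86.7 at 120 min, with no overlap (change 1.90, SE 0.13, adjusted p = 0.000954). The calls of Lck, Zap70 and Lat were lost without the Ikaros-Zn4-/- library at 120 min, and those of Lck and Zap70 also without 4 and 3 of the other libraries (highest adjusted p = 0.141, 0.247 and 0.0778). Without either library of 120 min fewer of the 35 genes were called in each direction, as were fewer of all genes. Without WT replicate 1 of 30 min 11 were lower and 4 higher, beside 2006 lower and 2190 higher of all 12203 genes. With time alone in the model Lck and Lat were not called (adjusted p = 0.132 and 0.0729).

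Cytotoxic and effector genes were mostly lower at 120 min. Of 18 tested, 12 were called lower and 0 higher by limma, also 0 at an unadjusted p below 0.05 and 0 under each alternative setting run, with a median of -0.68. Nkg7 (chr7:43437073-43438249), a protein of cytotoxic granules, had 187 and 243 RPKM in WT and 304 and 353 in Ikaros-Zn4-/- cells at 30 min, and 19.1 and 55.9 at 120 min (change -2.72, SE 0.23, adjusted p = 0.00108). Prf1, the pore-forming perforin, had 17.2, 19.3, 16.0 and 24.6 RPKM at 30 min and 3.29 and 2.59 at 120 min (change -2.15, SE 0.18, adjusted p = 0.00108). Both genes have no overlap between the times. Cst7, a cathepsin inhibitor, changed by -2.29 (SE 0.36, adjusted p = 0.00417) and Ctsw, a cathepsin, by -1.45 (SE 0.12, adjusted p = 0.00107). Without either 120 min library fewer of the 18 were lower, as were fewer of all genes. Without either WT library of 30 min 8 were lower, beside 2006 (replicate 1) and 2157 (replicate 2) of all 12203 genes. Without genotype in the model 7 were lower, beside 2287 of all genes. The summed markers of NK and gamma delta T cells went from 5.61 to 32.8 RPKM at 30 min to 2.09 and 14.7 at 120 min, and their part in these values was not tested.

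Genes of the naive state and of homing moved in both directions: of 27 tested, 11 were lower and 9 higher. These became 7 lower and 4 higher without the Ikaros-Zn4-/- library at 120 min, without WT replicate 2 of 30 min 5 were higher, without WT replicate 1 or the WT library of 120 min 6 were higher, and with RPKM as deposited or quantile normalization 5 were higher. Adhesion and trafficking genes were among the falls. Klf2, a factor of quiescence that drives S1pr1, had 285 to 517 RPKM at 30 min and 102 and 84.0 at 120 min (change -1.73, SE 0.26, adjusted p = 0.00386), and S1pr1, the receptor for egress from lymph nodes, changed by -0.58 (SE 0.13, adjusted p = 0.0137). Ccr9, a gut homing receptor, changed by -2.10 (SE 0.14, adjusted p = 0.000954) and Itgb7, its partner integrin, by -2.05 (SE 0.12, adjusted p = 0.000894). Id2, an inhibitor of E proteins, fell from 98.5 to 161 RPKM to 20.7 and 32.6 (change -1.98, SE 0.20, adjusted p = 0.00128).

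Some transcription factors of quiescence and naive identity, chosen after their values were seen, were among the rises, although Klf2 was among the falls. Satb1, an organiser of chromatin in T cells, had 44.9 to 50.1 RPKM at 30 min and 99.7 and 96.2 at 120 min (change 1.31, SE 0.10, adjusted p = 0.00107). Foxo3 rose by 1.43 (SE 0.12, adjusted p = 0.00107), Foxo1 by 0.68 (SE 0.18, adjusted p = 0.0231), Bach2 by 0.95 (SE 0.16, adjusted p = 0.00594) and Lef1 by 0.41 (SE 0.11, adjusted p = 0.0225). Tcf7, which encodes TCF1, was not called (change 0.27, SE 0.14, adjusted p = 0.158), and Ccr7, a homing receptor, had risen to 663 to 829.9 RPKM at 30 min and stood at 544 and 497 at 120 min (change -0.30, SE 0.16, adjusted p = 0.164). Calls were lost without the Ikaros-Zn4-/- library at 120 min for Klf2 (adjusted p = 0.0569), S1pr1, Foxo1, Bach2 and Lef1 (highest adjusted p over left-out libraries 0.108, 0.212, 0.0728 and 0.103), with the WT library of 120 min also ending those of S1pr1 and Lef1, WT replicate 2 of 30 min those of Foxo1 and Lef1 and WT replicate 1 that of Lef1. With RPKM as deposited and after quantile normalization Foxo1 (0.42 and 0.43, adjusted p = 0.071 and 0.0909) and Lef1 (0.15 and 0.17, adjusted p = 0.311 and 0.257) were not called. With RPKM as deposited Ccr7 was called lower (-0.56, adjusted p = 0.0317), and without genotype in the model S1pr1 was not called (adjusted p = 0.081).

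Interferon-response genes, which type I interferon induces to block viruses, were mostly lower at 120 min. Of 39 tested, 26 were lower and 5 higher, with a median of -0.85, and 14 were already lower at 30 against 0 min. Oas3 (chr5:120753098-120777661), an enzyme that senses double-stranded RNA, had 19.0 to 20.8 RPKM at 0 min, 8.53, 10.4, 10.5 and 15.9 at 30 min and 1.18 and 1.81 at 120 min. The 3 times do not overlap (change from 30 min -2.12, SE 0.17, adjusted p = 0.00107). Oas2 changed by -2.32 (SE 0.23, adjusted p = 0.00126), and reads of this family of similar genes may be split between its copies. Zbp1, a sensor of Z-form nucleic acid, had 27.9 to 34.7 RPKM at 30 min and 4.72 and 7.02 at 120 min (change -2.0004, SE 0.14, adjusted p = 0.000996). Mx1, an antiviral GTPase, went from 3.02 to 4.35 RPKM to 0.183 and 0.656 (change -1.72, SE 0.22, adjusted p = 0.00226). Ifit1, which binds foreign RNA ends, went from 2.15 to 4.08 RPKM to 0.251 and 0.573 (change -1.36, SE 0.25, adjusted p = 0.00708).

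A smaller set of the list rose, among them Stat2, a signal carrier of the interferon receptor, with 15.7 to 20.4 RPKM at 30 min and 24.4 and 30.3 at 120 min (change 0.80, SE 0.14, adjusted p = 0.00578), and Gbp3, a guanylate-binding protein (change 0.77, SE 0.13, adjusted p = 0.00598). Both calls were lost without the Ikaros-Zn4-/- library at 120 min (adjusted p = 0.0654 and 0.0617), when 0 of the 39 genes were called higher by limma and 18 lower. Without the WT library at 120 min 16 were lower and 3 higher, and Ifit1 had an adjusted p of 0.0567. The promoters of Oas3 (chr5:120777660-120777909, minus strand) and Ifit1 (chr19:34640639-34640888, plus strand) are shown with the interferon-stimulated response element, the site of the interferon-activated factor ISGF3, on either strand in capitals.
Oas3: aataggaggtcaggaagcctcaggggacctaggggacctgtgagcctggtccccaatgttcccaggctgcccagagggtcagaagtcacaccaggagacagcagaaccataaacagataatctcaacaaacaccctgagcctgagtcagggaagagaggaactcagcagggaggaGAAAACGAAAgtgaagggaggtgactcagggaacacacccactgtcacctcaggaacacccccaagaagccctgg
Ifit1: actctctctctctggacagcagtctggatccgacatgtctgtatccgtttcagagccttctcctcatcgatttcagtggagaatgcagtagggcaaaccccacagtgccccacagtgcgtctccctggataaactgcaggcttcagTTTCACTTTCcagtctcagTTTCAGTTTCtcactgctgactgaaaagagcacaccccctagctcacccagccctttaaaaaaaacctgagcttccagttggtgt
This element was found in 16 of the 35 RefSeq windows of interferon-response genes, which belong to 15 of 28 genes. Among all windows it was in 2.27% of those of genes called higher, 4.18% of those called lower and 3.18% in all.

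**Figure D3:**
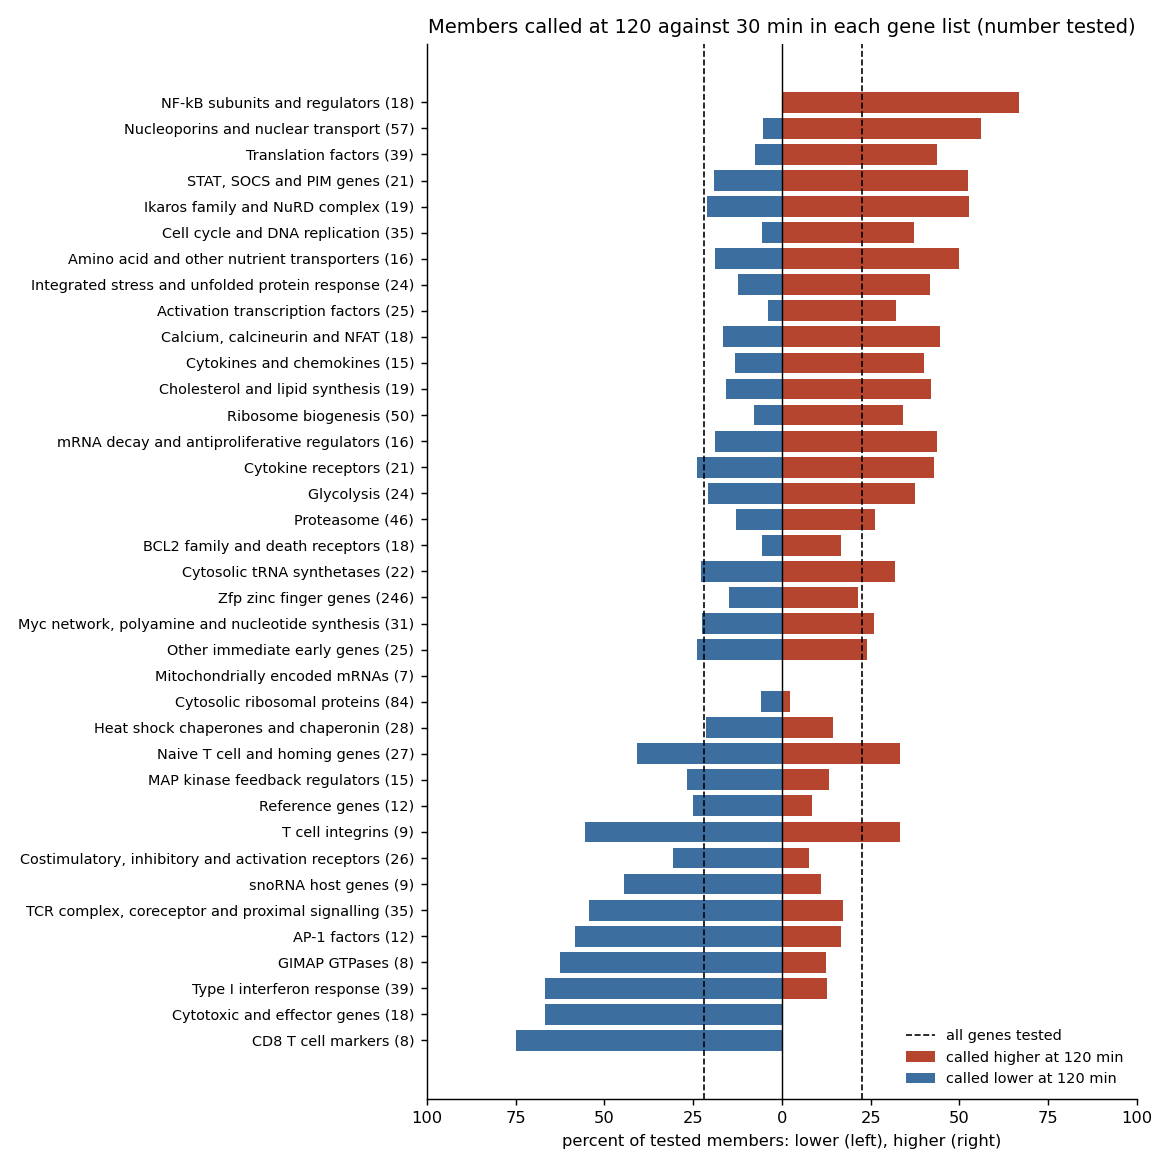
Percent of the tested members of each gene list called higher (right) or lower (left) at 120 against 30 min; dashed lines give the share over all genes tested, 22.7% and 22%. NF-kB and nuclear pore genes reach furthest to the right, and CD8 markers, cytotoxic genes and interferon-response genes furthest to the left.

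Cytokine signals and their receptors rose in part. Of 21 STAT, SOCS and PIM genes, 11 were higher and 4 lower, with a median of 0.55, and without either 120 min library 2 were lower. Stat5a (chr11:100859351-100885169), which carries the signals of IL-2 and IL-7, had 19.8, 15.8, 20.1 and 14.9 RPKM at 30 min and 121 in WT and 71.5 in Ikaros-Zn4-/- cells at 120 min. It had not been called at 30 against 0 min (adjusted p = 0.0587), and the later change was 2.61 (SE 0.23, adjusted p = 0.00108). Pim1, a kinase of survival downstream of STAT5, rose at both steps, from 37.7 to 54.6 RPKM at 0 min to 122 to 134 at 30 min and 259 and 321 at 120 min (second change 1.44, SE 0.13, adjusted p = 0.00108). The kinases Jak3 and Tyk2 fell, by 2.05 (SE 0.18, adjusted p = 0.00108) and by 1.59 (SE 0.12, adjusted p = 0.000996) in log2. Of 21 cytokine receptor genes, 9 were higher and 5 lower, against 22.7% and 22% of all genes, and fewer of each without either 120 min library. Among them Il21r rose by 1.64 (SE 0.22, adjusted p = 0.00285) and Il17ra by 1.40 (SE 0.14, adjusted p = 0.00125), whereas Il27ra fell by 2.07 (SE 0.13, adjusted p = 0.000938).

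Of 15 cytokine and chemokine genes, 6 were higher and 2 lower, against 22.7% and 22% of all genes. Leaving out the Ikaros-Zn4-/- library at 120 min gave 2 higher and 1 lower, leaving out Ikaros-Zn4-/- replicate 1 of 30 min 4 and 1, and with RPKM as deposited or the additive fit of 10 libraries 4 were lower. Tgfb1 rose from 29.7 to 35.8 RPKM to 93.9 and 88.2 (change 1.67, SE 0.11, adjusted p = 0.000954). The chemokine genes Ccl3 and Ccl4 and the TNF family ligand Tnfsf11 were called higher too, with higher levels in the Ikaros-Zn4-/- library of 120 min than in that of WT. Ccl4 had 1.18 to 1.84 RPKM at 30 min, 2.74 in WT and 20.2 in Ikaros-Zn4-/- cells at 120 min, and Tnfsf11 had 1.93 and 1.31 in WT and 21.3 and 8.53 in Ikaros-Zn4-/- cells at 30 min, then 7.16 and 72.5. The change of Tnfsf11 was 1.86 in WT and 2.63 in Ikaros-Zn4-/- cells, and the interaction did not pass for it (0.77, adjusted p = 0.792) or for Ccl4 (2.53, adjusted p = 0.279) or Ccl3 (2.30, adjusted p = 0.539). The calls of Ccl3, Ccl4 and Tnfsf11 were lost without the Ikaros-Zn4-/- library at 120 min, that of Ccl4 also without either Ikaros-Zn4-/- library of 30 min (highest adjusted p = 0.0914, 0.0863 and 0.0885). Ifng changed by -1.57 (SE 0.45, adjusted p = 0.0328), from 0.996 to 14.8 RPKM to 0.552 and 1.44, with overlap and with its call lost under 4 of the 6 left-out libraries (highest adjusted p = 0.315). Tnf, which had risen from 6.25 to 10.3 RPKM at 0 min to 58.4 to 108 at 30 min, stood at 40.8 and 48.9 and was not called (change -0.41, SE 0.18, adjusted p = 0.11), although both 120 min libraries lie below all of 30 min. It was called lower with RPKM as deposited (-0.66, adjusted p = 0.0394), quantile normalization (0.0174), the additive fit of 10 libraries (0.0456) and limma-voom (0.0392).

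Of 26 costimulatory, inhibitory and activation receptors, 8 were lower and 2 higher, against 22% and 22.7% of all genes. After quantile normalization 4 were higher, and more than 2 were also higher without the WT library at 120 min. Cd69, an early activation antigen, had 363 to 570.3 RPKM at 30 min and 312 and 401 at 120 min (change -0.12, SE 0.23, adjusted p = 0.695). Ctla4, whose call was lost with 1 mean per group (adjusted p = 0.0657), the inhibitory receptor for CD80 and CD86, peaked at 30 min with 29.3 to 34.7 RPKM and stood at 5.40 and 13.9 at 120 min (change -1.55, SE 0.31, adjusted p = 0.00953). Tnfrsf1b, a TNF receptor, rose from 18.1 to 27.6 RPKM to 83.7 and 95.8 (change 2.20, SE 0.19, adjusted p = 0.00108).

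Genes for growth were higher in part. Of 57 nuclear pore and nuclear transport genes, 32 were higher and 3 lower, with a median of 0.52. Nup98 (chr7:102119398-102210176), a mobile nucleoporin, had 18.4, 18.5, 15.9 and 15.2 RPKM at 30 min and 111 and 126 at 120 min, with no overlap (change 2.99, SE 0.15, adjusted p = 0.000894). Nup153 rose by 1.74 (SE 0.18, adjusted p = 0.00133), Ranbp2 by 1.65 (SE 0.14, adjusted p = 0.00108) and Cse1l, which recycles importin alpha, by 1.70 (SE 0.14, adjusted p = 0.00108). Of 50 ribosome biogenesis genes 17 were higher and 4 lower, of 39 translation factors 17 were higher and 3 lower, and of 84 ribosomal protein genes 2 were higher and 5 lower with a median of 0.01. Nop2, an RNA methyltransferase of the nucleolus, had 25.9 to 36.9 RPKM at 30 min and 44.0 in WT and 90.1 in Ikaros-Zn4-/- cells at 120 min (change 1.32, SE 0.18, adjusted p = 0.00293). Without the Ikaros-Zn4-/- library at 120 min fewer genes of each list were higher, and the share of ribosome biogenesis genes was close to that of all genes. With RPKM as deposited 18 nuclear pore and transport genes, 11 ribosome biogenesis genes and 10 translation factors were higher, beside 1848 of all 12203 genes. Lower were then 5 nuclear pore and transport genes, 6 ribosome biogenesis genes and 12 ribosomal protein genes, beside 3494 of all genes.

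Of 16 nutrient transporters 8 were higher and 3 lower (4 and 1 without the Ikaros-Zn4-/- library at 120 min), with Slc7a5, a carrier of large neutral amino acids, going from 25.6 to 33.5 RPKM to 68.6 and 89.8 (change 1.67, SE 0.19, adjusted p = 0.00181). Of 31 genes of the Myc network and of polyamine and nucleotide synthesis 8 were higher and 7 lower, shares close to those of all genes. Without the Ikaros-Zn4-/- library at 120 min 2 were higher and 4 lower, without the WT library or WT replicate 2 of 30 min 5 were higher, and with RPKM as deposited or quantile normalization 2 and 4. Myc itself was not called, with 68.6 to 111 RPKM at 30 min and 70.3 and 58.5 at 120 min (change -0.11, SE 0.19, adjusted p = 0.67). Of 35 cell cycle and replication genes 13 were higher and 2 lower. Cdkn1a, the kinase inhibitor p21, rose at both steps, from 0.0506 to 0.377 RPKM at 0 min to 3.25 to 5.66 at 30 min and 14.95 and 22.7 at 120 min (second change 2.03, SE 0.24, adjusted p = 0.00184). Mcm3 and Mcm7, subunits of the replicative helicase, rose by 1.35 (SE 0.14, adjusted p = 0.00138) and 1.39 (SE 0.13, adjusted p = 0.00119). Of 18 genes of the BCL2 family and death receptors 3 were higher, 1 was lower and 14 were not called, with a median of 0.02. Both shares lie below those of all genes, and with RPKM as deposited 2 were higher and 4 lower. Bcl2, the survival factor, changed by -1.37 (SE 0.14, adjusted p = 0.00139), and Bcl2l11, which encodes its antagonist Bim, rose by 1.99 (SE 0.29, adjusted p = 0.00341), a call lost without the Ikaros-Zn4-/- library at 120 min (adjusted p = 0.0566). Without that library 7 of the 35 cell cycle genes were higher, and with RPKM as deposited 7 were lower in place of 2.

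Ikzf1 (chr11:11685003-11772926), the gene of Ikaros, was not called between 30 and 120 min. It had 156 and 171 RPKM in WT and 240.0 and 263 in Ikaros-Zn4-/- cells at 30 min, and 149.9 and 214 at 120 min (change 0.09, SE 0.11, adjusted p = 0.553), and with RPKM as deposited the sign turned (-0.18, adjusted p = 0.316). At both times the Ikaros-Zn4-/- libraries are higher than those of WT. Of 19 genes of the Ikaros family and the NuRD complex 10 were higher and 4 lower, with a median of 0.55. Without either 120 min library 6 were higher, and after quantile normalization 7 were lower. Chd4 (chr6:125095981-125130591), the remodeler of NuRD, had 82.8, 90.5, 82.7 and 94.4 RPKM at 30 min and 293 and 349.8 at 120 min, with no overlap (change 2.12, SE 0.12, adjusted p = 0.000894). Ikzf2, the relative Helios, rose in both genotypes from different levels, 1.98 and 2.15 to 7.21 RPKM in WT and 5.46 and 5.05 to 16.0 in Ikaros-Zn4-/- cells (change 1.68, SE 0.13, adjusted p = 0.00107).

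The changes were also fitted in each genotype, with 1 library at 120 min assumed to vary like the other groups. WT cells alone gave 3789 calls (31%) and Ikaros-Zn4-/- cells alone 4725 (38.7%). The changes in the 2 genotypes come from separate libraries, but their calls share 1 estimate of the spread and the library factors come from all libraries. Genes called higher in both numbered 1643, which is 82.1% of those in WT and 66.5% of those in Ikaros-Zn4-/- cells. Genes called lower in both numbered 1384, 77.4% and 61.3%, and 6 genes were called in opposite directions. The 2 changes correlated over 12203 genes with Pearson's r of 0.761 and Spearman's rho of 0.778, as a description, since genes do not vary independently. The WT count was 2342 in a fit of the 30 and 120 min libraries alone, 2405 without WT replicate 1 of 30 min and 2324 without WT replicate 2.

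**Figure D4:**
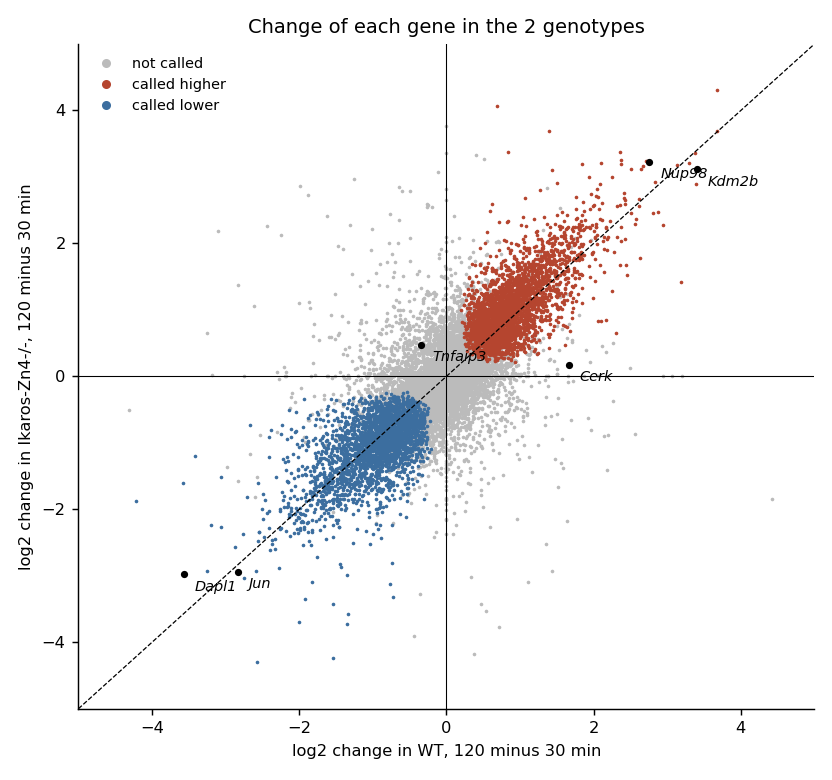
Log2 change from 30 to 120 min in WT (horizontal) and in Ikaros-Zn4-/- cells (vertical) for each of the 12203 genes, coloured by the call over both genotypes; the dashed line marks equal change. Most called genes lie along the line. The call favours this, since the spread at 120 min rests on the difference between the genotypes. Cerk and Tnfaip3 are examples off the line.

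The difference between the genotypes in this interval was tested as an interaction. The limma fit called 0 genes (0%), with 1042 at an unadjusted p below 0.05 (8.54% of all) and a lowest adjusted p of 0.132. Other settings called 0 to 35: 1 and 4 with pseudocounts of 0.25 and 4, 3 with no intensity trend and 35 with no filter on low values. Among the genes of lowest p, Cerk, a kinase that makes ceramide 1-phosphate, had 9.98 and 9.498 RPKM in WT at 30 min and 28.2 at 120 min, and 15.5, 16.5 and 14.7 in Ikaros-Zn4-/- cells (difference of changes -1.49, SE 0.20, adjusted p = 0.279), with exons that overlap Gm15569. BC002163 had 7.30 and 8.62 then 5.08 RPKM in WT and 15.6 and 18.5 then 0.681 in Ikaros-Zn4-/- cells (difference -2.91, SE 0.33, adjusted p = 0.151). Gm25809, Mir6997 and Mir7086, annotated as small RNA genes, were listed at 0 in all libraries but the Ikaros-Zn4-/- library of 120 min. Only through that library did they pass the filter on the mean, so their low p gives no support for a difference. Gm24366, a microRNA gene, was listed at 0 in that library alone. With 1 library per genotype at 120 min, a difference that misses the threshold does not show that the genotypes act alike.

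The calls varied with gene size. Genes called higher had a median genomic span of 28.5 kb, against 16.4 kb for genes called lower and 16.0 kb for all. Protein-coding genes were ranked by span and divided into 10 bins. The share called higher was 10.7% in the bin of the shortest genes, with a median of 2.90 kb, 40.5% in bin 9, with a median of 78.7 kb, and 32.1% in the bin of the longest. The share called lower was 27.6%, 18.0% and 17.3% in the same bins. Exon length moved alike, and across 9681 protein-coding genes, which are not independent, Spearman's rho with the change was 0.182 for span and 0.219 for exon length. In WT alone these were 0.157 and 0.202, and in Ikaros-Zn4-/- cells 0.195 and 0.222.

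**Figure D5:**
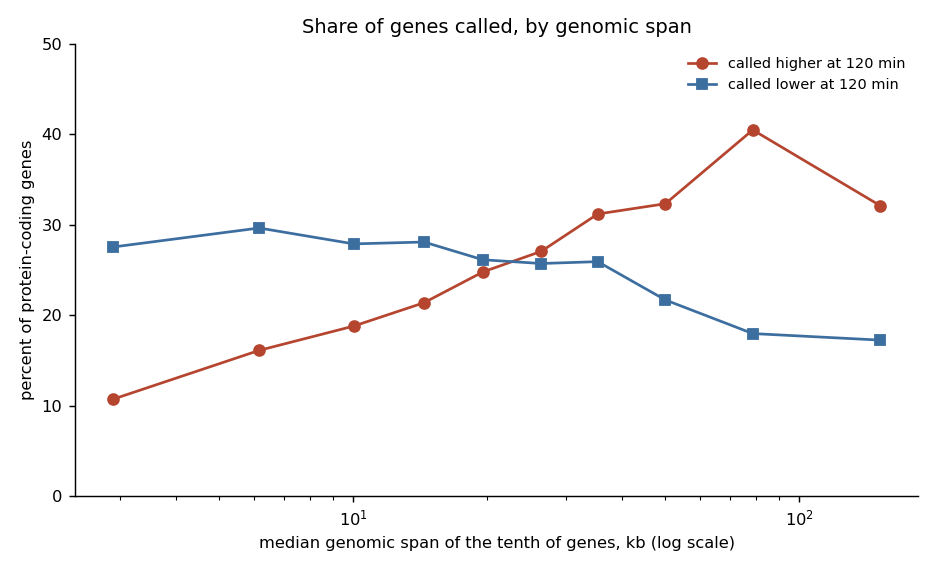
Percent of protein-coding genes called higher (circles) or lower (squares) at 120 against 30 min in 10 bins of genes by genomic span, placed at the median span of each bin on a log axis. The share called higher grows from 10.7% to 40.5% over the first 9 bins and is 32.1% in the last.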

How the data were processed

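Naive CD8+ T cells were profiled by RNA sequencing with an Illumina TruSeq RNA kit, which does not mark strand, in 10 libraries. The authors deposited RPKM values per gene in 1 table, and the submitters' processing notes name TopHat2 2.0.12, TopHat, HTSeq 0.6.1, mm10 and GRCm38; annotation, tool roles and filters: not given in the sources used here. RPKM steps gave the depth, with 1 read on 1 kb worth 0.0750 to 0.222 RPKM.

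RPKM were multiplied by a library factor (median ratio to the gene's geometric mean, 0.873 to 1.21), and log2(value + 1) was fitted in limma 3.58.1 (R 4.3.3) with genotype and time and an intensity trend, two-sided, for 12203 genes whose mean over all libraries reached 0.5 RPKM. This pseudocount understates the change of low genes. The library factors were highest at 120 min, 1.20 in WT and 1.21 in Ikaros-Zn4-/- cells, against 0.952 to 1.06 at 30 min. The fit in each genotype and the interaction used 1 mean per group over 10 libraries. Lists are described by counts and medians. Python 3.11.15, pandas 2.3.3 and matplotlib 3.10.9 were used for tables and figures. Only the main fit was run on simulated data, with independent noise and far fewer changed genes than were called here.

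The 42 gene lists and the comparison were chosen with earlier results of these data known. Genes named were the 15 largest rises and falls that were called, did not overlap and had a mean of at least 10 RPKM at the higher time, up to 4 called and 2 uncalled members per list, 3 interaction genes per direction and Ikzf1. Fosl2, Fosb, Junb, Batf, Rel, Relb, Zap70, Lck, Lat, Plcg1, Mx1, Ifit1, Stat2, Gbp3, S1pr1, Klf2, Lef1, Bach2, Zfp36, Ifng, Id2, Satb1, Foxo1, Foxo3 and any other gene outside this rule were chosen after their values were seen. Alternatives were other scalings, pseudocounts, filters and designs, limma-voom on recovered reads, and each library left out. Some genes are not reported here.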

Additional observations from a re-analysis of the deposited data

Results flagged for a closer look

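In RPKM as deposited, Cerk, Tnfaip3 and Tcf7 moved from 30 to 120 min in opposite directions in the 2 genotypes, with the 120 min library above both 30 min libraries in 1 genotype and below both in the other. After scaling by the library factors the log2 change of Tnfaip3 was -0.34 in WT and 0.48 in Ikaros-Zn4-/- cells, while those of Cerk (1.67 and 0.17) and Tcf7 (0.43 and 0.12) were positive in both. The interaction, Ikaros-Zn4-/- minus WT, did not pass limma's test: -1.49 for Cerk (adjusted p = 0.279), 0.82 for Tnfaip3 (adjusted p = 0.802) and -0.31 for Tcf7 (adjusted p = 0.719).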

How the results depend on the processing

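No paired analysis was possible because the 120 min groups hold 1 library each and share fewer than 2 replicate numbers. The count of called genes was 2329 to 5017 with each library left out, and 4725 to 6201 under the other settings. The count of called interactions was 0 to 4 with a library left out, 1 with a pseudocount of 0.25, 4 with a pseudocount of 4, 3 with no trend and 35 with no filter. The WT count was 2342 from the 30 and 120 min libraries alone, and 2324 to 3843 with a library left out. Of 204 named genes that were called, 136 kept the call with each of the 6 libraries left out and 68 lost it at least once, 62 of them without the Ikaros-Zn4-/- library of 120 min; 0 changed sign. Signs turned for genes that were not called, while the call itself favours genes that move alike in both genotypes. With RPKM as deposited the change of Ikzf1 was -0.18, that of Tnfaip3 -0.20 and that of Nr4a1 -0.025. With each library left out, the change ran from -0.34 to 0.48 for Tnfaip3 (-0.08 without Ikaros-Zn4-/- replicate 2 of 30 min), from -0.36 to 0.12 for Cd69 (0.0032 without WT replicate 2 of 30 min), from -0.036 to 0.475 for Nr4a1, from -1.05 to 0.20 for Klf6, from -0.088 to 0.022 for Mcl1 and from -0.45 to 0.24 for Myc. The cause was not tested. With 1 library per genotype at 120 min, the spread at that time rests on the difference between the genotypes.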
